A study of Mus musculus with 8 samples.

Results

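Mouse cells labelled ex-HSC, taken from a culture, were compared with cells labelled pre-HSC, taken from the embryo at day 11.5, across all genes that could be tested. The members were chosen by their labels alone and are 6 of the 8 libraries deposited, 3 of ex-HSC and 3 of pre-HSC, while 2 libraries of fetal liver HSC were left outside the comparison. HSC stands for hematopoietic stem cell. RNA was poly(A)-selected and sequenced in paired-end libraries, and the values are in FPKM, a fragment count scaled by transcript length and by the library's mapped total. All libraries carry the C57BL/6J strain label. Embryos came from C57BL/6J females mated with wild-type males or with males carrying the Ly6a-GFP transgene, in which a promoter of the Sca-1 gene drives a fluorescent protein, and the labels do not say which embryos gave which library. The stage of ex-HSC is given as in vitro, and these libraries were taken to be cells recovered from the culture described in the labels' protocols. There, sorted embryonic cells were reaggregated with OP9 cells, a stromal line from mouse bone marrow, for 4 days with SCF, IL-3 and Flt3L at 100 ng/ml each. A culture on an endothelial line is mentioned too, and the labels tie neither to these libraries by name. Culture, time and any difference in the sort are shared by all 3 ex-HSC libraries and by none of the pre-HSC libraries, so they cannot be told apart. Sort gates and the origin of the replicates are not given, so a p-value here measures the spread between these libraries alone, which may be technical.

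Pre-HSCs bud from the endothelium of the large arteries of the embryo. They leave the vessel wall as they take on blood identity, and they need further maturation before they can rebuild the blood of an adult recipient. SCF acts through the receptor Kit, Flt3L through Flt3, and IL-3 through a specific alpha chain paired with a shared beta chain. SCF and IL-3 are also the factors with which mast cells, tissue cells that store histamine and proteases, are commonly grown from progenitors.

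Of 33504 genes in the table, 13324 reached 1 FPKM in 2 or more of the 6 libraries and were tested, and 20180 were not. Among the genes tested, 2163 rose in ex-HSC (16.2%), 3941 fell (29.6%) and 7220 did not pass, in a limma fit on log2(FPKM + 1) at a Benjamini-Hochberg adjusted p under 0.05. The counts given for gene lists below are to be read against these shares. The median log2 fold change was 1.04 among genes that rose and -1.28 among those that fell. A log2 fold change of 3 or more was reached by 163 genes that rose, and 451 genes fell by at least that much. Among those that fell, 1340 had a mean below 1 FPKM in ex-HSC, and 497 of those that rose had a mean below 1 FPKM in pre-HSC. Because the filter could be met by 1 group alone, 1366 of the falls were of genes that passed it through pre-HSC alone and 516 of the rises were of genes that passed through ex-HSC alone, as all 9 mast cell markers did, and such genes were chosen by the filter for a higher level in that group. On the log2(FPKM + 1) scale the change of such low genes is understated, and where a group is listed at 0 the value depends on the 1 that was added. In what follows, values of a group are in the order of replicates 1, 2 and 3, and a value with ± in brackets is the log2 fold change of ex-HSC over pre-HSC with its SE.

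The balance of rises and falls depended on scaling and on 1 library. Of all calls, 35.4% were rises as deposited, against 50.1% after median-of-ratios scaling, 55.7% after quantile normalization and 47.3% without ex-HSC replicate 2. That library had 24992 genes above 0 FPKM against 17336 to 18374 in the other 5, and 13310 of its genes lay between 0 and 1 FPKM. Its size factor was 0.778, and of the genes that rose it held the highest ex-HSC value in 4.62%. The median log2 fold change of all genes was -0.17 as deposited, 0.00 with median-of-ratios scaling and -0.03 without that library, and smaller changes are to be read against this shift. Without it, 2076 of the 2163 rises and 3612 of the 3941 falls were still called. The libraries held 11682 to 12757 genes at 1 FPKM or above, and no read depth can be given because the table holds no counts.

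**Figure D1:**
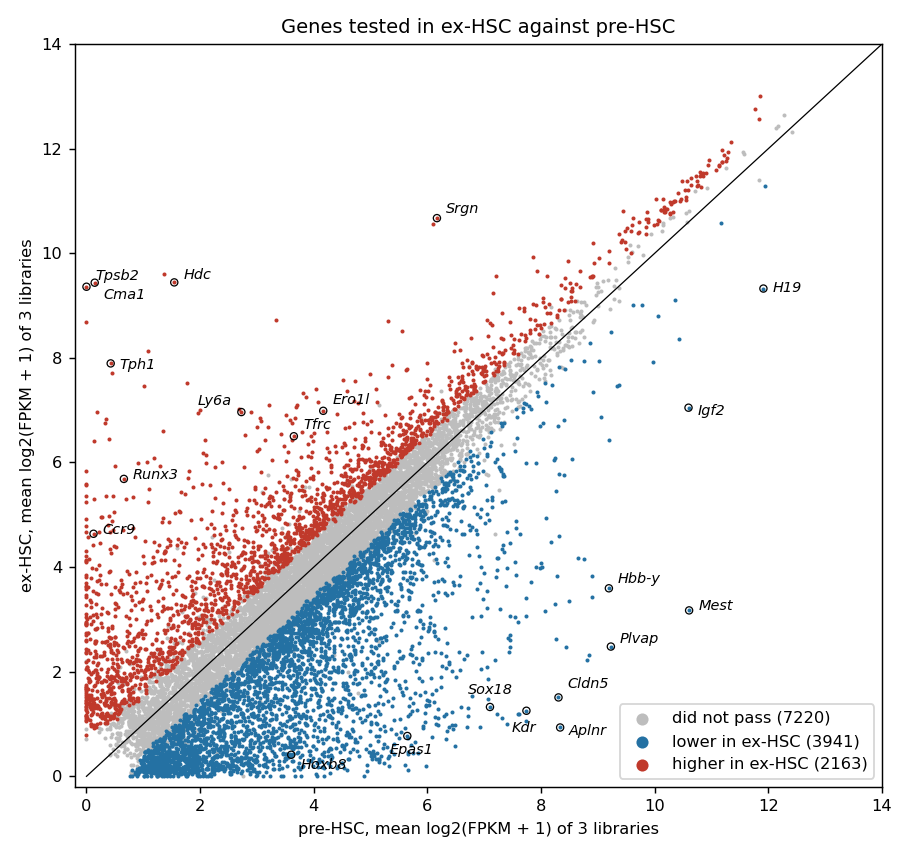
Mean log2(FPKM + 1) of the 3 pre-HSC libraries (x axis) against that of the 3 ex-HSC libraries (y axis), 1 point for each of 13324 genes tested. Red points rose in ex-HSC (2163), blue points fell (3941) and grey points did not pass, and the line marks equal values. The named mast cell genes lie at the left edge and the named vessel genes along the bottom.

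The steepest rises included genes of mast cell granules, of small signalling amines and of neutrophils. Tpsb2, a mast cell tryptase, was listed at 0 FPKM in all 3 pre-HSC libraries and stood at 1004, 534 and 526 FPKM in ex-HSC (9.36 ± 0.26 on the log2 scale, limma adjusted p = 5.40e-09). Hdc, the enzyme that makes histamine, had 1.76, 0.979 and 3.54 FPKM in pre-HSC and 1219, 468 and 588 in ex-HSC (7.90 ± 0.37, limma adjusted p = 4.00e-08). Tph1, which starts serotonin synthesis, had 0.846, 0.0777 and 0.219 FPKM in pre-HSC and 399, 170.4 and 195 in ex-HSC (7.47 ± 0.33 on the log2 scale, limma adjusted p = 2.46e-08). Replicate 1 was the highest ex-HSC library for each of these genes. Their groups could not overlap, because the steepest calls were named only from genes without overlap. Among the 10 steepest rises were also S100a8 and S100a9, calcium-binding proteins of neutrophils, the cystatin gene Stfa1, which has close copies, the granule protease gene Gzmb and Cyp11a1. Cyp11a1, which makes the first steroid intermediate from cholesterol, was at 0.228, 0.0881 and 0.0961 FPKM in pre-HSC and 215, 82.9 and 105 in ex-HSC (6.78 ± 0.31 on the log2 scale, limma adjusted p = 3.43e-08).

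Genes that make or store mediators moved in both directions. Over all genes tested, 16.2% rose and 29.6% fell. In the list of 30 mediator genes 28 were tested, of which 13 rose, 5 fell and 10 did not pass, with a median log2 fold change of 0.37 against -0.17 over all genes. The share of this list that fell does not exceed that of all genes. Among the rises 4 were of genes that passed the filter through ex-HSC alone, and 1 of the falls was through pre-HSC alone. Srgn, the core protein of the granule proteoglycan serglycin, went from 57.3, 65.8 and 94.2 FPKM in pre-HSC to 2347, 1183 and 1558 in ex-HSC, and was the only gene among the 10 largest gains in mean FPKM besides Ifitm1 that does not encode a ribosomal protein. Its mean was 23.4-fold higher (4.50 ± 0.27 on the log2 scale, limma adjusted p = 2.02e-07). Alox5, which starts leukotriene synthesis, had 2.11, 1.74 and 3.86 FPKM in pre-HSC and 79.8, 33.3 and 49.9 in ex-HSC (log2 fold change 3.91 ± 0.32), and its partner Alox5ap had 59.1, 54.1 and 76.2 FPKM in pre-HSC and 291, 171 and 271 in ex-HSC (1.91 ± 0.24). The serotonin transporter gene Slc6a4 and Ddc, the decarboxylase that completes serotonin, rose as well (log2 fold changes 2.85 and 1.95), while Maoa, which breaks serotonin down, fell (-1.04). Genes of the following steps in leukotriene synthesis did not all follow. Lta4h had 86.1, 94.9 and 88.5 FPKM in pre-HSC and 94.8, 72.1 and 114 in ex-HSC (0.04 ± 0.21, limma adjusted p = 0.902), with overlapping groups. Ptgis, the prostacyclin synthase of vessels, fell too (log2 fold change -3.80).

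The mast cell proteases include a run of neighbours. In the gene order of RefSeq on mouse assembly GRCm38.p6, 8 consecutive tested genes on chromosome 14 rose, Cma1, Mcpt1, Mcpt2, Mcpt4, Mcpt8, Ctsg, Gzmc and Gzmb. They encode chymases and other serine proteases of mast cells, basophils and neutrophils. Log2 fold changes in this run reached from 2.43 for Gzmc to 9.29 for Cma1, and 6 of the 8 genes were listed at 0 in all 3 pre-HSC libraries. The run was found after the values were seen and has no test of its own, and proteases of this family resemble each other, so that shared reads could have been assigned to either. Within the run the order of the ex-HSC libraries differed. Mcpt2 had 76.7, 43.9 and 30.6 FPKM in ex-HSC, highest in replicate 1, whereas Ctsg, a protease of neutrophils and mast cells, had 29.7, 47.9 and 45.8, lowest in replicate 1. The summed FPKM of the mast cell markers went the first way (3594, 1780 and 1756 in ex-HSC replicates 1, 2 and 3) and that of the neutrophil markers the second (667, 972 and 817). In bulk RNA, fewer cells of a type and less RNA per cell cannot be told apart, for these markers and for every gene group that follows.

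The promoters of 4 genes that rose steeply and of Cd274 are shown to let their base composition be compared. Each runs from 250 bases before to 50 after the gene's start as RefSeq gives it on GRCm38.p6, 5′ to 3′ on the gene's strand, in lower case with each CG pair in capitals. Cma1 and Gzmb lie in the chromosome 14 run, Cpa3 and Hdc are mast cell genes from elsewhere, and Cd274 encodes PD-L1. Positions are chr14:55944626-55944925 for Cma1, chr14:56262285-56262584 for Gzmb, chr3:20242132-20242431 for Cpa3 and chr2:126618629-126618928 for Hdc, all on the minus strand, and chr19:29367188-29367487 on the plus strand for Cd274.
Cma1: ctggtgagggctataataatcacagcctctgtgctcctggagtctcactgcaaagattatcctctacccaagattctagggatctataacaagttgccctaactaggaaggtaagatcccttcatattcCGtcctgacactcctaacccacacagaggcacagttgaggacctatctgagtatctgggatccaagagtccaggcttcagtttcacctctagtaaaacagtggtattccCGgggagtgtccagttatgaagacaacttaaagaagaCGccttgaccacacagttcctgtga
Gzmb: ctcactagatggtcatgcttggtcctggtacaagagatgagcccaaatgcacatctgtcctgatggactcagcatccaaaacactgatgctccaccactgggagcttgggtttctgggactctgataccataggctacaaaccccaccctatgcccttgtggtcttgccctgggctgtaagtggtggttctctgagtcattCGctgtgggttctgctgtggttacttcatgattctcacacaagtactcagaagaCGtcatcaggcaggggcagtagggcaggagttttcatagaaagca
Cpa3: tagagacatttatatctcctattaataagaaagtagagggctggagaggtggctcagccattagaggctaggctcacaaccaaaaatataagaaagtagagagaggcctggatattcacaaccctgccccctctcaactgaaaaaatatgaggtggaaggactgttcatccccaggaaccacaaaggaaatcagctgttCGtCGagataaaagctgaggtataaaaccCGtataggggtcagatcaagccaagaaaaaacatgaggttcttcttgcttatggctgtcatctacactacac
Hdc: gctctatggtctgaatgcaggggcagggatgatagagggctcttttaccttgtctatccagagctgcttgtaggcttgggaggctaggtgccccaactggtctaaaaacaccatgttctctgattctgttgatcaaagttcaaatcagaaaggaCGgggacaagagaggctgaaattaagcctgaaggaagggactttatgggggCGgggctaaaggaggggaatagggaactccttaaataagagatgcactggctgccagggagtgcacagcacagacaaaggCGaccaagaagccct
Cd274: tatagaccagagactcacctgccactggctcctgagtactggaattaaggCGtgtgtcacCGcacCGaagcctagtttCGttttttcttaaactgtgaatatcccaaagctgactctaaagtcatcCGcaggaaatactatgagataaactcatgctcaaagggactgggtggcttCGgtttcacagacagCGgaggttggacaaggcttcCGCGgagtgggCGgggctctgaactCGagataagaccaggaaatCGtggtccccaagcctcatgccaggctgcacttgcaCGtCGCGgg
The 4 granule and mediator promoters held 2 or 3 CG pairs each. Among 27025 first promoter windows from RefSeq, 31.9% hold 3 or fewer. The Cd274 window held 15, and 43.9% of all windows hold 10 or more. The letters AGATAA or their reverse complement TTATCT, a core bound by GATA factors, occurred in 11.4% of all windows, with 1 match in Cpa3 and 2 in Cd274 and none in the other 3. A match describes these letters only.

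Cd274 itself lies in another run of neighbours that rose. On chromosome 19 the 6 consecutive tested genes were Rcl1, Jak2, Insl6, Plgrkt, Cd274 and Pdcd1lg2. Jak2, the kinase that carries IL-3 receptor signals, had 8.69, 9.17 and 8.52 FPKM in pre-HSC and 25, 18 and 16.7 in ex-HSC (1.07 ± 0.21 on the log2 scale, limma adjusted p = 0.00163). Plgrkt, a plasminogen receptor gene, had 22.8, 20.0 and 24.6 FPKM in pre-HSC and 109, 58.4 and 80.4 in ex-HSC (1.79 ± 0.24, limma adjusted p = 0.000108). Cd274 had 1.07, 1.35 and 1.15 FPKM in pre-HSC and 11.2, 4.29 and 6.82 in ex-HSC (1.86 ± 0.28, limma adjusted p = 0.000279), and Pdcd1lg2, the gene of PD-L2, had 0.0543, 0.156 and 0.0583 FPKM in pre-HSC and 10.3, 4.51 and 6.65 in ex-HSC (2.84 ± 0.26). All 6 genes had replicate 2 or 3 as their lowest ex-HSC library, and no ex-HSC library of these 4 overlapped with pre-HSC. Rcl1 and Insl6 rose least (log2 fold changes 0.82 and 0.81), and neither was called without pre-HSC replicate 1. In all, 11 runs of at least 5 neighbouring tested genes rose and 48 fell among 12945 genes that could be placed, counted after the values were seen and with no test. Other rising runs were the S100a4, S100a5, S100a6, S100a8 and S100a9 genes on chromosome 3, class II histocompatibility genes with Psmb8 and Tap2 on chromosome 17, and Them6, Ly6e, Ly6i, Ly6a, Ly6c1, Ly6c2 and 9030619P08Rik on chromosome 15. The chromosome 1 run joined Rgs13, Rgs1 and Rgs18, which switch off G protein signals, to Pla2g4a and Ptgs2, successive enzymes of prostaglandin synthesis, and the call of Pla2g4a held, of the 6 libraries left out in turn, without ex-HSC replicate 2 alone. Several of these runs are families of close copies, whose shared reads may have been split.

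Receptors for cytokines of the medium were among those that rose, with 1 exception that did not pass. Over all genes tested, 16.2% rose and 29.6% fell. Of 34 cytokine receptor genes tested 18 rose, 6 fell and 10 did not pass, for a median log2 fold change of 0.80. Among the rises 4 were of genes that passed the filter through ex-HSC alone. Kit had 34.2, 39.2 and 33.2 FPKM in pre-HSC and 126, 54.9 and 82.5 in ex-HSC (1.20 ± 0.27 on the log2 scale, limma adjusted p = 0.00412), and Flt3 had 2.68, 3.7 and 3.1 FPKM in pre-HSC and 77.9, 54.7 and 84.8 in ex-HSC (4.13 ± 0.22, limma adjusted p = 1.05e-07). The shared beta chain gene Csf2rb had 5.44, 3.55 and 8.21 FPKM in pre-HSC and 236, 85.5 and 106 in ex-HSC (4.33 ± 0.37), and its close copy Csf2rb2 had 1.39, 1.09 and 2.32 FPKM in pre-HSC and 191, 59.3 and 79.5 in ex-HSC (5.26 ± 0.37), with reads that may have been split between the pair. The IL-3 alpha chain gene Il3ra had 10.6, 12.3 and 12.6 FPKM in pre-HSC and 21.5, 12.9 and 18.8 in ex-HSC, with no overlap but a difference that missed the threshold (0.52 ± 0.23, limma adjusted p = 0.0832). It passed without ex-HSC replicate 2 and after median-of-ratios scaling. Receptors of other cytokines that rose included Il1rl1, the IL-33 receptor of mast cells, from 0.406, 0.373 and 3.81 to 109, 42.1 and 56.5 FPKM, and Il7r of lymphoid progenitors, from 0.277, 0.126 and 0.227 to 9.17, 4.75 and 5.51. Members that fell included the IL-6 family receptors Il6st and Lifr (log2 fold changes -2.29 and -2.35). Csf1r, the macrophage receptor, had 85.8, 26.3 and 164 FPKM in pre-HSC and 13.9, 8.9 and 9.17 in ex-HSC, highest in pre-HSC replicate 3.

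The signalling machinery shared by white blood cells rose most broadly of the lists. Of 54 genes tested, 46 rose and 1 fell, and the median log2 fold change was 1.54. Among the rises 3 were of genes that passed the filter through ex-HSC alone. The count that rose lay between 40 and 50 as each library was left out in turn. Selplg, the ligand by which leukocytes roll on selectins, had 5.98, 4.72 and 9.48 FPKM in pre-HSC and 142, 97 and 141 in ex-HSC (4.07 ± 0.26 on the log2 scale, limma adjusted p = 3.51e-07). Lat2, an adaptor of mast and B cells, had 2.14, 1.76 and 2.69 FPKM in pre-HSC and 59, 31.1 and 41.3 in ex-HSC (3.77 ± 0.25), and Cd37, a leukocyte tetraspanin, had 4.96, 6.79 and 9.99 FPKM in pre-HSC and 122, 75.7 and 112 in ex-HSC (3.68 ± 0.27). Every ex-HSC library lay above every pre-HSC library for these 3 genes. Btk, Was and Vav1, whose products couple receptors to calcium and actin, had smaller rises (log2 fold changes 2.10, 1.93 and 1.75). The exception was Plcg1, the phospholipase that VEGF receptors use, at 86.9, 82.5 and 67.2 FPKM in pre-HSC and 20.5, 9.44 and 21 in ex-HSC (-2.22 ± 0.29, limma adjusted p = 8.17e-05), while its blood cell relative Plcg2 rose (1.48). The kinase gene Lyn had 41.2, 38.9 and 50.1 FPKM in pre-HSC and 45, 30.6 and 36.3 in ex-HSC (-0.22 ± 0.21) and did not pass.

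Myeloid receptors, integrins and the phagocyte oxidase gave a less even picture. Of 38 genes tested 23 rose, 4 fell and 11 did not pass, with a median log2 fold change of 1.48. Among the rises 9 were of genes that passed the filter through ex-HSC alone, and 2 of the falls were through pre-HSC alone. Ncf1, a cytosolic oxidase subunit, had 17.6, 8.17 and 27.4 FPKM in pre-HSC and 147, 135 and 142 in ex-HSC (3.07 ± 0.34 on the log2 scale, limma adjusted p = 2.36e-05), but Cybb, the membrane subunit it activates, had 8.83, 2.46 and 10.4 FPKM in pre-HSC and 5.82, 6.17 and 4.09 in ex-HSC, with overlapping groups (-0.21 ± 0.39, limma adjusted p = 0.681). Fcer1a, the binding chain of the IgE receptor, was listed at 0 in all pre-HSC libraries and at 8.27, 3.96 and 3.82 FPKM in ex-HSC, and Ms4a2, its beta chain, rose too (1.60). Its signalling chain Fcer1g, shared with macrophage receptors, had 104, 44.7 and 246 FPKM in pre-HSC and 353, 172 and 198 in ex-HSC (1.12 ± 0.50, limma adjusted p = 0.0872), and its groups overlapped. The inhibitory receptor gene Lilrb4 had 7.62, 2.45 and 10.1 FPKM in pre-HSC and 154, 66.1 and 72.7 in ex-HSC (3.73 ± 0.43), and Itgb2, the common chain of leukocyte integrins, had 4.95, 4.49 and 6.31 FPKM in pre-HSC and 49, 26.2 and 42.7 in ex-HSC (2.65 ± 0.25). The 4 that fell were Fcgr1, Trem2, Siglec1 and Siglech, of which the first 3 are macrophage receptors and the last marks plasmacytoid dendritic cells. Fcgr1, Trem2 and Siglec1 lost their calls without ex-HSC replicate 2, Siglec1 also without either other ex-HSC library, and Siglech without ex-HSC replicate 1. Trem2 had 28.8, 6.88 and 58.4 FPKM in pre-HSC and 6.15, 5.04 and 6.11 in ex-HSC, so that its pre-HSC libraries spread more widely than the groups' means differed.

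Macrophage markers moved with these genes between the pre-HSC libraries. Their summed FPKM was 585, 196 and 1220 in pre-HSC replicates 1, 2 and 3 and 157, 124 and 104 in ex-HSC. Of 8 macrophage markers 7 were tested, 6 fell and 1 rose, and 2 fell without ex-HSC replicate 2. Pre-HSC replicate 3 held the highest pre-HSC value for 78.9% of the 38 genes above, for 88.9% of the 54 signalling genes and for 97.7% of 44 lysosome genes, against 39.6% of all genes tested. Without that library 29 genes of the first list rose and 47 of the signalling list. The first list had 2 falls without it, the number found without pre-HSC replicate 1 or ex-HSC replicate 1 as well, and a single fall when ex-HSC replicate 2 was left out. The part of macrophages in these results was not tested. Apoe, a lipid carrier made by macrophages, followed the same order at 1182, 429 and 2367 FPKM in pre-HSC and 541, 449 and 369 in ex-HSC, and its call (-1.25 ± 0.47 on the log2 scale, limma adjusted p = 0.0495) was lost in 12 of 19 alternative settings, leaving out any library but pre-HSC replicate 2 among them. The heme oxygenase gene Hmox1 had 99.4, 77.6 and 148 FPKM in pre-HSC and 43.7, 22.1 and 20.3 in ex-HSC, also highest in pre-HSC replicate 3, with no overlap (-1.91 ± 0.31). Most of the lysosome list did not pass: 5 genes rose, 8 fell and 31 did not. Neither share exceeds the 16.2% that rose and 29.6% that fell over all genes tested, so the counts are no result about this list. Of the 5 rises, 1 was of a gene that passed the filter through ex-HSC alone. Ctsh and Laptm4a fell by the largest amounts (log2 fold changes -3.43 and -1.75), and Glb1 and Laptm5 rose (1.73 and 1.66). The same list gave 9 rises and 4 falls without ex-HSC replicate 2, 8 rises and 5 falls without pre-HSC replicate 3, and 5 falls without pre-HSC replicate 1.

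**Figure D2:**
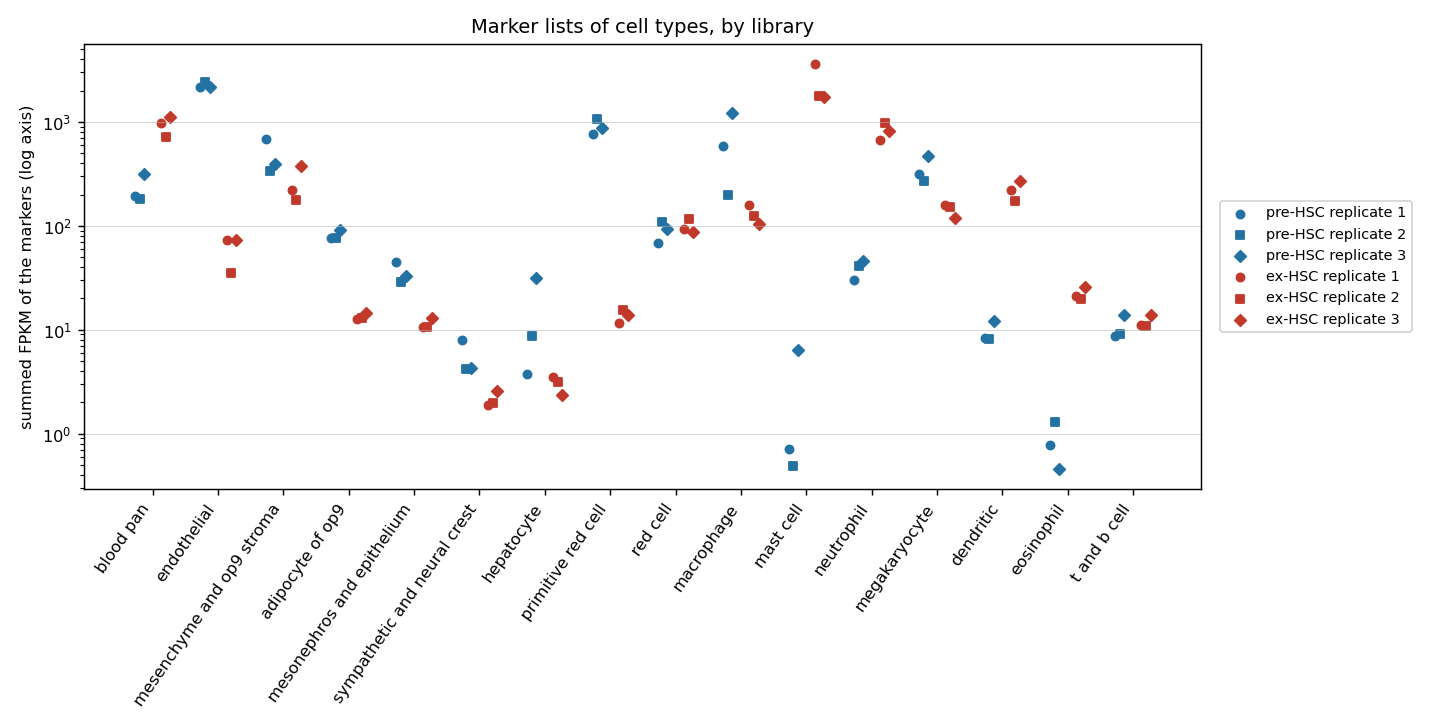
Summed FPKM of the genes of 16 marker lists (log axis) in each of the 3 pre-HSC (blue) and 3 ex-HSC (red) libraries, with a symbol per replicate. Endothelial and primitive red cell sums lay lower in every ex-HSC library, mast cell, neutrophil, dendritic and eosinophil sums lay higher, and the macrophage sum of pre-HSC spread from 196 to 1220.

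The labels were checked against the markers of other cell types that the samples could hold. The 8 endothelial markers summed to 2173 to 2405 FPKM in pre-HSC and to 35.5 to 72.9 in ex-HSC, and all 8 fell. The 7 blood markers summed to 183 to 315 and to 719 to 1107, with 4 that rose and none that fell, so both groups held blood transcripts. Embryonic globins summed to 769 to 1058 in pre-HSC and to 11.7 to 15.6 in ex-HSC. Markers of mesenchyme and of OP9-like stroma summed to 336 to 679 in pre-HSC and to 178 to 377 in ex-HSC, where 8 of 10 fell, 1 did not pass and Dlk1 rose (162, 111 and 103 FPKM in pre-HSC and 196, 158 and 364 in ex-HSC, 0.86 ± 0.30 on the log2 scale, limma adjusted p = 0.0354). The Dlk1 groups overlapped, and the call was lost without pre-HSC replicate 3, ex-HSC replicate 1 or ex-HSC replicate 3. Dlk1 made up most of the stromal sum in each ex-HSC library (222, 178 and 377 FPKM in replicates 1, 2 and 3). The 6 adipocyte markers summed to 76.9 to 90.3 FPKM in pre-HSC and to 12.6 to 14.5 in ex-HSC. Pdgfrb, a receptor of stromal cells, had 5.42, 2.37 and 3.36 FPKM in pre-HSC and 6.59, 4.18 and 6.52 in ex-HSC. The shares of OP9 and other cells in the libraries were not tested. Markers of neutrophils, dendritic cells and eosinophils were low in pre-HSC (sums of 30.2 to 46.1, 8.23 to 12.1 and 0.459 to 1.28 FPKM) and higher in ex-HSC (667 to 972, 175 to 271 and 19.7 to 25.5). Of 6 dendritic markers tested 5 rose and Siglech fell, and the ex-HSC sum includes Flt3, the receptor of Flt3L, at 77.9, 54.7 and 84.8 FPKM. The filter was passed through ex-HSC alone by 6 of the 9 neutrophil markers that rose, 3 of the 5 dendritic ones and all 4 eosinophil ones. T and B cell markers summed to 8.75 to 13.8 and 10.9 to 13.9 FPKM, ranges that overlap.

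G protein-coupled receptors of blood cells, which sense chemokines, lipids and nucleotides, moved in both directions. Of 49 tested, 20 rose, 11 fell and 18 did not pass, for a median log2 fold change of 0.51. Over all genes tested, 16.2% rose and 29.6% fell. The share of this list that fell does not exceed that, so its count of falls is no result about it. Of the rises, 16 were of genes that passed the filter through ex-HSC alone and had to be higher there. There were 6 falls without ex-HSC replicate 2 and 7 without replicate 3. Ccr9, the receptor for a chemokine of gut and thymus, had 0.201, 0 and 0.0769 FPKM in pre-HSC and 22.8, 23.6 and 25.4 in ex-HSC (4.51 ± 0.19 on the log2 scale, limma adjusted p = 2.29e-08). P2ry10, a lysophospholipid receptor gene of lymphoid cells, had 0, 0.0757 and 0.113 FPKM in pre-HSC and 13.6, 11.2 and 14.2 in ex-HSC (3.71 ± 0.20), and Adora2b, an adenosine receptor, had 0.294, 0.295 and 1.68 FPKM in pre-HSC and 17.1, 11.5 and 14.4 in ex-HSC (3.20 ± 0.30). The 3 ex-HSC values of Ccr9 and of P2ry10 lay close together, unlike those of the mast cell genes. Cxcr4, which holds stem cells in their niche through Cxcl12, had 7.62, 5.57 and 11.2 FPKM in pre-HSC and 72.1, 35.9 and 34.7 in ex-HSC (2.37 ± 0.32, limma adjusted p = 0.000102). S1pr1, a sphingosine phosphate receptor of endothelium and circulating lymphocytes, had 65.7, 71.6 and 66.9 FPKM in pre-HSC and 17.3, 7.7 and 13.2 in ex-HSC (-2.39 ± 0.26). Gpr56, an adhesion receptor of stem cells, had 53.5, 77.4 and 60.3 FPKM in pre-HSC and 111, 41.4 and 98.6 in ex-HSC (0.29 ± 0.33), and its groups overlapped. Its ex-HSC replicates 1 and 3 lay above every pre-HSC value and replicate 2 below.

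Blood transcription factors divided nearly evenly. Of 52 tested, 16 rose, 15 fell and 21 did not pass, with a median log2 fold change of -0.03 that became 0.20 without ex-HSC replicate 2, when 20 rose and 16 fell. The share that fell is near the 29.6% of all genes, so the count of falls is no result about them. Among the rises 6 were of genes that passed the filter through ex-HSC alone, and 3 of the falls were through pre-HSC alone. Runx3 had 0.367, 0.502 and 0.914 FPKM in pre-HSC and 65.4, 39.1 and 50.3 in ex-HSC (5.03 ± 0.24 on the log2 scale, limma adjusted p = 4.38e-08), and Runx2 had 0.923, 0.647 and 1.26 FPKM in pre-HSC and 14.7, 9.01 and 13.6 in ex-HSC (2.78 ± 0.24). Their relative Runx1, which endothelium needs to form blood, had 12.6, 13.1 and 16.1 FPKM in pre-HSC and 28.1, 13.5 and 32.1 in ex-HSC, with overlapping groups (0.70 ± 0.30, limma adjusted p = 0.0770), and their common partner Cbfb had 70.4, 68.4 and 61.7 FPKM in pre-HSC and 59.6, 41.3 and 56 in ex-HSC (-0.36 ± 0.20). For Runx1 only ex-HSC replicate 2 overlapped, and replicates 1 and 3 lay above every pre-HSC value. Irf4, a factor of lymphoid and dendritic cells, had 0.0884, 0.057 and 0.279 FPKM in pre-HSC and 12.6, 8.43 and 17.4 in ex-HSC (3.55 ± 0.26), and Bhlhe40 had 5.48, 8.0 and 7.06 FPKM in pre-HSC and 49.4, 32.1 and 57.1 in ex-HSC (2.56 ± 0.25). Ikzf1, the lymphoid and stem cell factor Ikaros, had 13.9, 13.7 and 14 FPKM in pre-HSC and 76.1, 49.8 and 86 in ex-HSC (2.23 ± 0.23). Gata1 and Gata2, factors of red, mast and stem cells, rose (2.41 and 1.17), and both were highest in ex-HSC replicate 1, as was the mast cell marker sum, whose part in these values was not tested.

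Several factors that blood and endothelium share fell. Erg had 54.5, 66 and 48.8 FPKM in pre-HSC and 22.7, 9.1 and 20.8 in ex-HSC (-1.72 ± 0.31 on the log2 scale, limma adjusted p = 0.000881), Mecom had 22.7, 25.9 and 22.5 FPKM in pre-HSC and 7.91, 4.46 and 10.8 in ex-HSC (-1.57 ± 0.27), and Fli1 had 62.7, 66.4 and 56.3 FPKM in pre-HSC and 38.5, 26 and 41.3 in ex-HSC (-0.81 ± 0.22). No ex-HSC library reached the pre-HSC range of these 3 genes. Tal1 fell by a smaller amount (-0.76), a call lost without pre-HSC replicate 1, pre-HSC replicate 2 or ex-HSC replicate 3. Lmo2 and Ldb1, which bridge Gata and Tal1 proteins, did not pass: Lmo2 had 116, 131 and 143 FPKM in pre-HSC and 110.4, 72.9 and 141 in ex-HSC (-0.31 ± 0.24) and Ldb1 160.0, 158 and 167 FPKM in pre-HSC and 130.3, 76.1 and 129 in ex-HSC (-0.57 ± 0.23). For the stem cell factors Meis1, Hlf and Myb the log2 fold changes were 0.25 ± 0.25, 0.79 ± 0.43 and 0.42 ± 0.29, with overlapping groups, and the lowest ex-HSC value of each was in replicate 2.

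**Figure D3:**
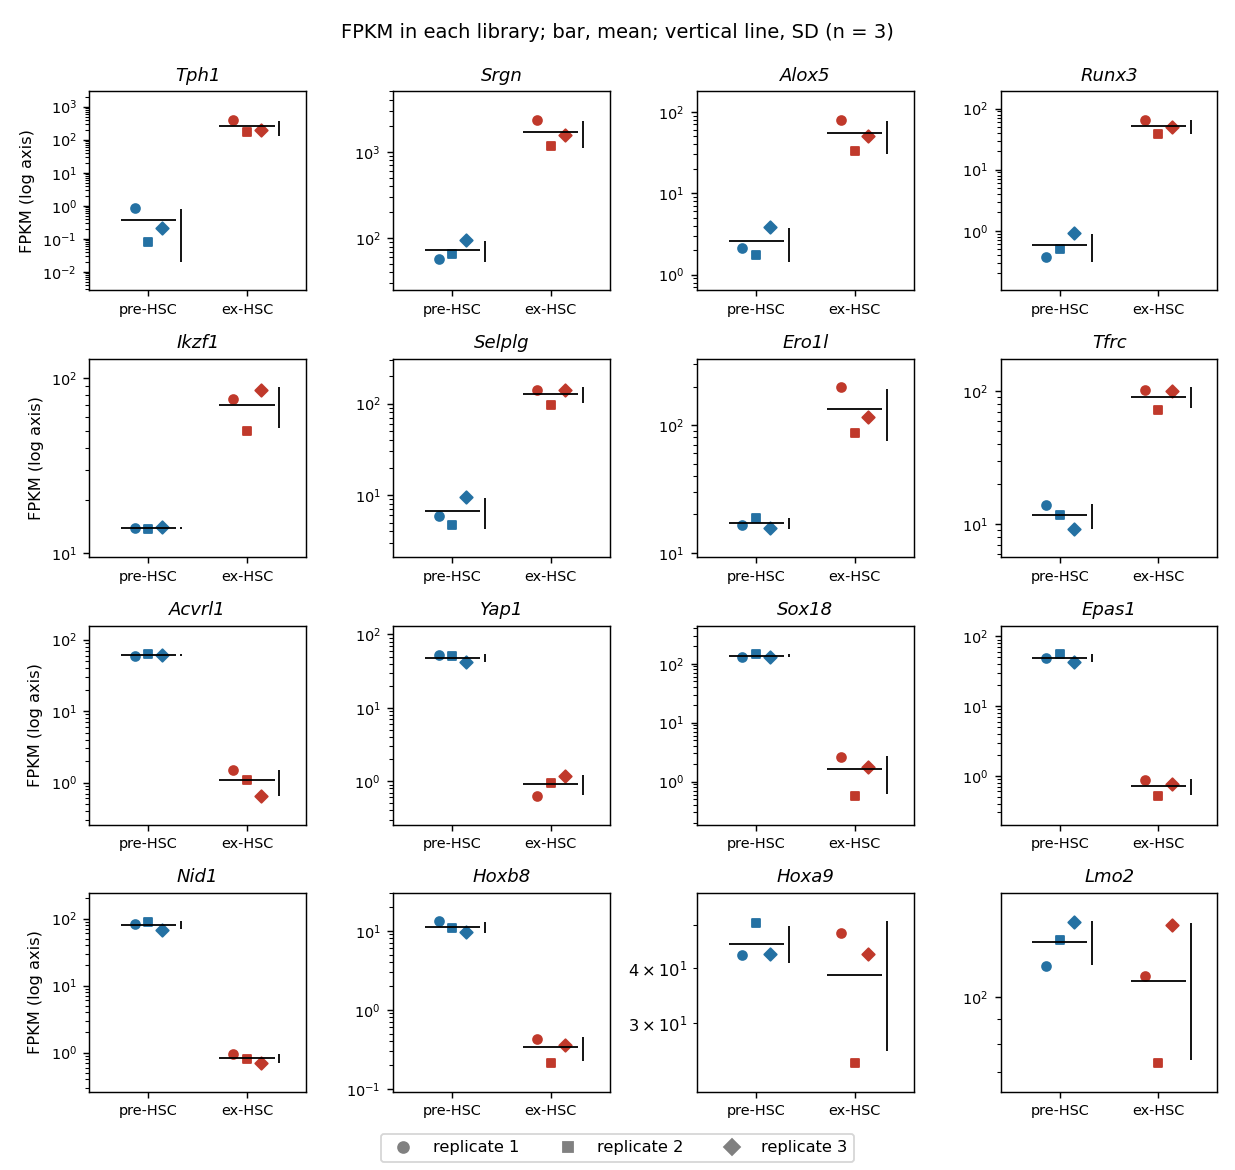
FPKM (log axis) of 16 genes in each of the 3 pre-HSC (blue) and 3 ex-HSC (red) libraries, with symbols for replicates, a bar at the mean and a vertical line for the SD (n = 3), cut short where the mean minus the SD lies below 0. Tph1 to Tfrc rose, Acvrl1 to Hoxb8 fell, and Hoxa9 and Lmo2, for which ex-HSC replicate 2 is the lowest library, did not pass.

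Most regulators of vessels and mesoderm tested were lower in ex-HSC. Of 43 tested, 39 fell, 27 of them genes that passed the filter through pre-HSC alone and had to be lower, 0 rose and 4 did not pass, for a median log2 fold change of -2.24, with 1 rise without ex-HSC replicate 2. The SoxF factors, which specify endothelium, all fell. Sox18 had 131, 145 and 132 FPKM in pre-HSC and 2.62, 0.565 and 1.78 in ex-HSC (-5.77 ± 0.28 on the log2 scale, limma adjusted p = 5.17e-08), Sox17 had 32.2, 45.7 and 33.4 FPKM in pre-HSC and 0.767, 0.385 and 0.458 in ex-HSC (-4.62 ± 0.22) and Sox7 28.8, 33.6 and 30.8 FPKM in pre-HSC and 0.588, 0.179 and 0.336 in ex-HSC (-4.56 ± 0.20). Nr2f2, the factor of venous identity, had 50.9, 59.1 and 41 FPKM in pre-HSC and 0.16, 0.90 and 0.193 in ex-HSC (-5.20 ± 0.25), and Epas1, a hypoxia factor of endothelium, had 48.9, 55.6 and 43.4 FPKM in pre-HSC and 0.866, 0.512 and 0.762 in ex-HSC (-4.87 ± 0.20). The list holds 1 receptor, Aplnr, which binds apelin, and its change was the largest there (317, 335 and 315 FPKM in pre-HSC and 0.886, 0.986 and 0.861 in ex-HSC, -7.40 ± 0.18, limma adjusted p = 2.18e-09). Hes1, a Notch target used by blood cells too, had 33.8, 44.9 and 26.7 FPKM in pre-HSC and 27, 15.2 and 40.0 in ex-HSC (-0.41 ± 0.32) and Foxp1 58.2, 59.6 and 28.9 FPKM in pre-HSC and 39.3, 28.4 and 39.4 in ex-HSC (-0.39 ± 0.28), and both pairs of groups overlapped.

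Hox genes record position along the body axis, and 38 of the 39 listed are in the table, 11 of the A cluster, 10 of B, 9 of C and 8 of D. A mean of 1 FPKM or more was reached in pre-HSC by 11, 8, 6 and 6 of these, and in ex-HSC by 6, 1, 0 and 0. Of the 30 tested 28 fell, but 23 of these passed the filter through pre-HSC alone and so had to be lower in ex-HSC, including all 5 of the C cluster and all 6 of the D cluster, and 8 genes were not tested. The 2 that did not pass the test lie in the A cluster. Hoxa9, a factor that stem and progenitor cells use, had 42.6, 50.4 and 42.9 FPKM in pre-HSC and 48, 24.3 and 43 in ex-HSC (-0.28 ± 0.26, limma adjusted p = 0.388), and Hoxa7 had 15.7, 12.5 and 14.4 FPKM in pre-HSC and 17.5, 10.2 and 18 in ex-HSC (0.06 ± 0.24). Their neighbours in the cluster fell. Hoxa10 had 22.1, 15 and 16 FPKM in pre-HSC and 5.71, 2.57 and 4.68 in ex-HSC (-1.84 ± 0.27, limma adjusted p = 0.000195), and Hoxa5 had 28, 25.4 and 19.8 FPKM in pre-HSC and 5.68, 2.01 and 3.98 in ex-HSC (-2.44 ± 0.29). Of the B cluster only Hoxb4 kept a mean above 1 FPKM in ex-HSC, at 5.31, 5.4 and 4.69 FPKM in pre-HSC and 1.54, 0.864 and 1.31 in ex-HSC (-1.47 ± 0.21). Hoxb8 and Hoxd8 fell the most of their clusters, Hoxd8 from 13.8, 13.9 and 15 to 0.177, 0.424 and 0.399 FPKM (-3.52 ± 0.20). Leaving out ex-HSC replicate 2 gave the same count of 28 falls.

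**Figure D4:**
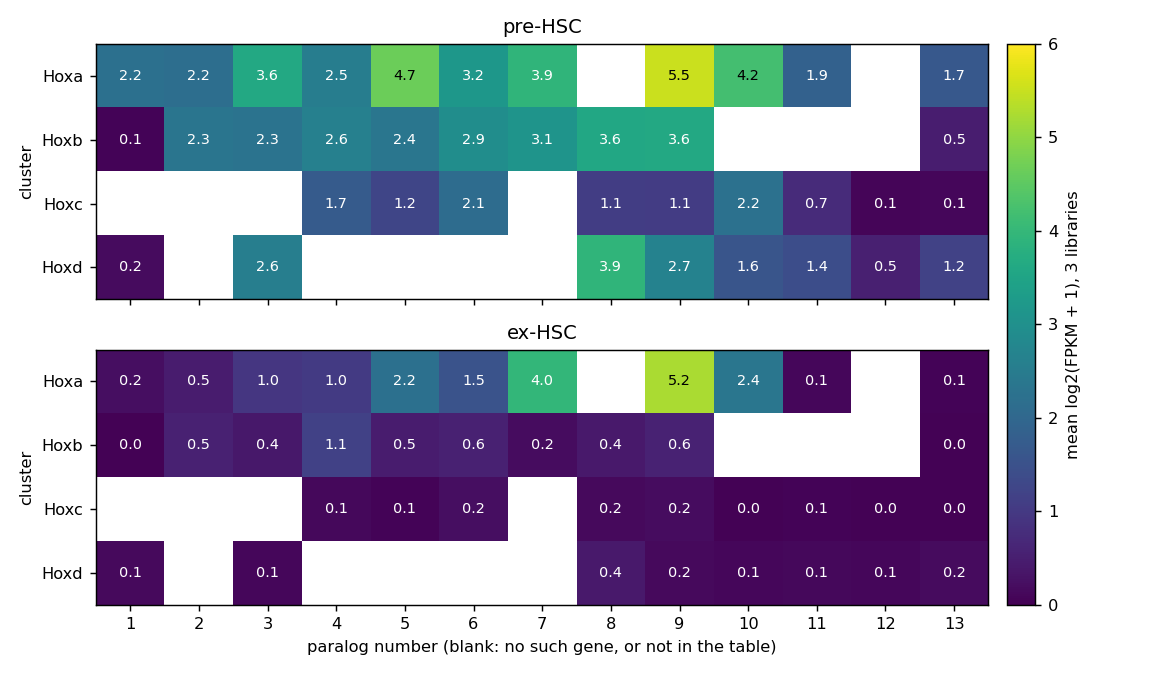
Mean log2(FPKM + 1) of the 3 pre-HSC libraries (top) and the 3 ex-HSC libraries (bottom) for each Hox gene in the table, by cluster (rows) and paralog number (columns). In ex-HSC the level stays high for Hoxa7 and Hoxa9 and lies lower for the other genes tested.

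Receptors and transducers of BMP and TGF-beta were mostly lower. Of 35 tested, 25 fell, 9 did not pass and 1 rose, against 3 rises without ex-HSC replicate 2. Among the falls 6 were of genes that passed the filter through pre-HSC alone. Acvrl1, an endothelial type I receptor, had 58.8, 62.3 and 61.6 FPKM in pre-HSC and 1.51, 1.08 and 0.645 in ex-HSC (-4.92 ± 0.21 on the log2 scale, limma adjusted p = 2.37e-08), and its co-receptor gene Eng had 179.6, 193 and 193 FPKM in pre-HSC and 20.7, 6.47 and 17.6 in ex-HSC (-3.71 ± 0.34). The ligand gene Bmp4 had 23.2, 20.6 and 21 FPKM in pre-HSC and 0.80, 0.468 and 0.335 in ex-HSC (-3.89 ± 0.20). The more widely used Tgfbr2 and Bmpr2 fell less (-1.74 and -1.70), and the ligand Tgfb1, which blood cells make, had 106, 109.7 and 125 FPKM in pre-HSC and 153, 90.4 and 138 in ex-HSC (0.13 ± 0.22, limma adjusted p = 0.664). Targets differed. Id3 went from 145, 134 and 164 to 12.3, 9.59 and 18.9 FPKM (-3.39 ± 0.24), whereas Id1 had 47.3, 51.6 and 49.8 FPKM in pre-HSC and 34.3, 16.8 and 55.9 in ex-HSC with overlapping groups (-0.62 ± 0.34).

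Wnt genes gave 32 falls and 2 rises among 38 tested (median log2 fold change -1.30), and 19 of the falls were of genes that passed the filter through pre-HSC alone. Tspan12 and Fzd4, a Norrin co-receptor and its Frizzled receptor in vessels, had 13, 14.6 and 10.2 FPKM in pre-HSC and 0.119, 0.133 and 0.0724 in ex-HSC for Tspan12, and 23.6, 26.8 and 21.1 FPKM in pre-HSC and 3.37, 1.07 and 1.91 in ex-HSC for Fzd4 (log2 fold changes -3.60 ± 0.20 and -3.06 ± 0.27). Tcf7l1, a repressor of Wnt targets, had 24.6, 32.3 and 22.6 FPKM in pre-HSC and 2.72, 0.457 and 1.33 in ex-HSC (-3.55 ± 0.31), and Lef1 fell from 8.38, 8.61 and 7.83 to 0.948, 0.688 and 0.219 FPKM. The lymphoid member of that family, Tcf7, rose instead, at 6.96, 6.82 and 5.12 FPKM in pre-HSC and 17.1, 13.7 and 19.9 in ex-HSC (1.29 ± 0.22, limma adjusted p = 0.000595), and the other rise was Wnt9a (0.80). Ctnnb1, beta-catenin, which also serves cell junctions, had 463, 514 and 460.3 FPKM in pre-HSC and 188, 132 and 174 in ex-HSC (-1.55 ± 0.19). The scaffold gene Axin1 had 15.4, 15.6 and 16 FPKM in pre-HSC and 24.9, 16.6 and 24.5 in ex-HSC (0.44 ± 0.21) and did not pass.

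Guidance receptors, whose proteins steer vessels and axons, gave 32 falls and 2 rises among 40 tested, with 18 of the falls in genes that passed the filter through pre-HSC alone. Ephb4, of veins, had 133, 138 and 126 FPKM in pre-HSC and 2.36, 1.08 and 2.06 in ex-HSC (-5.58 ± 0.22 on the log2 scale, limma adjusted p = 2.10e-08), and its arterial ligand Efnb2 fell too (-3.29). Nrp2 had 87.9, 91.1 and 79.2 FPKM in pre-HSC and 0.993, 0.971 and 0.694 in ex-HSC (-5.53 ± 0.19), and Plxnd1, the endothelial semaphorin receptor, had 302, 333 and 278 FPKM in pre-HSC and 12.5, 5.07 and 10.6 in ex-HSC (-4.95 ± 0.28). These 3 genes lost nearly all of their level in every ex-HSC library. The rises were Sema4b (0.83) and Sema3d (0.67), and neither was called without pre-HSC replicate 2 or ex-HSC replicate 1. Sema4b also lost its call without pre-HSC replicate 1 or ex-HSC replicate 2, and Sema3d without ex-HSC replicate 3. Plxnc1, a plexin of white blood cells, had 8.36, 7.08 and 6.48 FPKM in pre-HSC and 9.55, 6.12 and 9.65 in ex-HSC (0.17 ± 0.23). Sema4d, a semaphorin of leukocytes, had 9.82, 6.51 and 12.5 FPKM in pre-HSC and 51.5, 0 and 48.5 in ex-HSC, and the single 0 may be a failed estimate.

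The Hippo pathway and the contractile actin genes it controls fell in 31 of 37 cases, 9 of them genes that passed the filter through pre-HSC alone. Yap1, its effector, had 52.4, 50.3 and 41.5 FPKM in pre-HSC and 0.624, 0.946 and 1.18 in ex-HSC (-4.68 ± 0.21 on the log2 scale, limma adjusted p = 2.90e-08), and Tead2, a DNA-binding partner, had 134, 138 and 123 FPKM in pre-HSC and 3.78, 3.19 and 2.86 in ex-HSC (-4.96 ± 0.19). Ctgf and Cyr61, targets of Yap1, fell as well (-3.92 and -3.28). Cav1, of caveolae, had 67.6, 100.1 and 91.7 FPKM in pre-HSC and 2.36, 1.14 and 0.771 in ex-HSC (-5.21 ± 0.27), and Acta2, smooth muscle actin, had 87.2, 50.2 and 60.8 FPKM in pre-HSC and 2.32, 2.58 and 0.707 in ex-HSC (-4.58 ± 0.31). By contrast Srf and Mkl1, which drive actin genes in many cells, had log2 fold changes of -0.23 ± 0.25 and -0.23 ± 0.22, and Zyx had 95.2, 97.3 and 112 FPKM in pre-HSC and 108, 64.8 and 119 in ex-HSC (-0.10 ± 0.24). The only rise was Tagln2 (0.66), lost without pre-HSC replicate 1 or ex-HSC replicate 1.

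Matrix genes fell furthest, with a median log2 fold change of -3.21, the lowest of the 24 lists in the bar plot. Of 40 tested, 38 fell and none rose, and 12 of the falls were of genes that passed the filter through pre-HSC alone. Hspg2, the proteoglycan perlecan, had 168, 167 and 171 FPKM in pre-HSC and 1.09, 0.947 and 0.994 in ex-HSC (-6.40 ± 0.18 on the log2 scale, limma adjusted p = 5.57e-09). Mmrn2 and Nid1, of the endothelial surface and basement membrane, had 87.9, 96.2 and 82.9 FPKM in pre-HSC and 0.536, 0.366 and 0.604 in ex-HSC for Mmrn2, and 83.6, 89.3 and 68.5 FPKM in pre-HSC and 0.954, 0.81 and 0.699 in ex-HSC for Nid1 (-5.91 ± 0.19 and -5.48 ± 0.20). Sparc went from 461, 493 and 479 to 11.8, 9.34 and 8.6 FPKM, and Fn1, fibronectin, from 159.8, 140.5 and 137 to 5.53, 2.53 and 3.41. The pre-HSC values were thus close together and the ex-HSC values low in each library. The exceptions were Lama5, a laminin chain at 7.85, 9.71 and 10.3 FPKM in pre-HSC and 18.5, 8.44 and 10.6 in ex-HSC (0.33 ± 0.27), and P4ha2, a collagen hydroxylase at 9.8, 4.77 and 7.32 FPKM in pre-HSC and 6.42, 4.09 and 3.96 in ex-HSC (-0.49 ± 0.27).

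**Figure D5:**
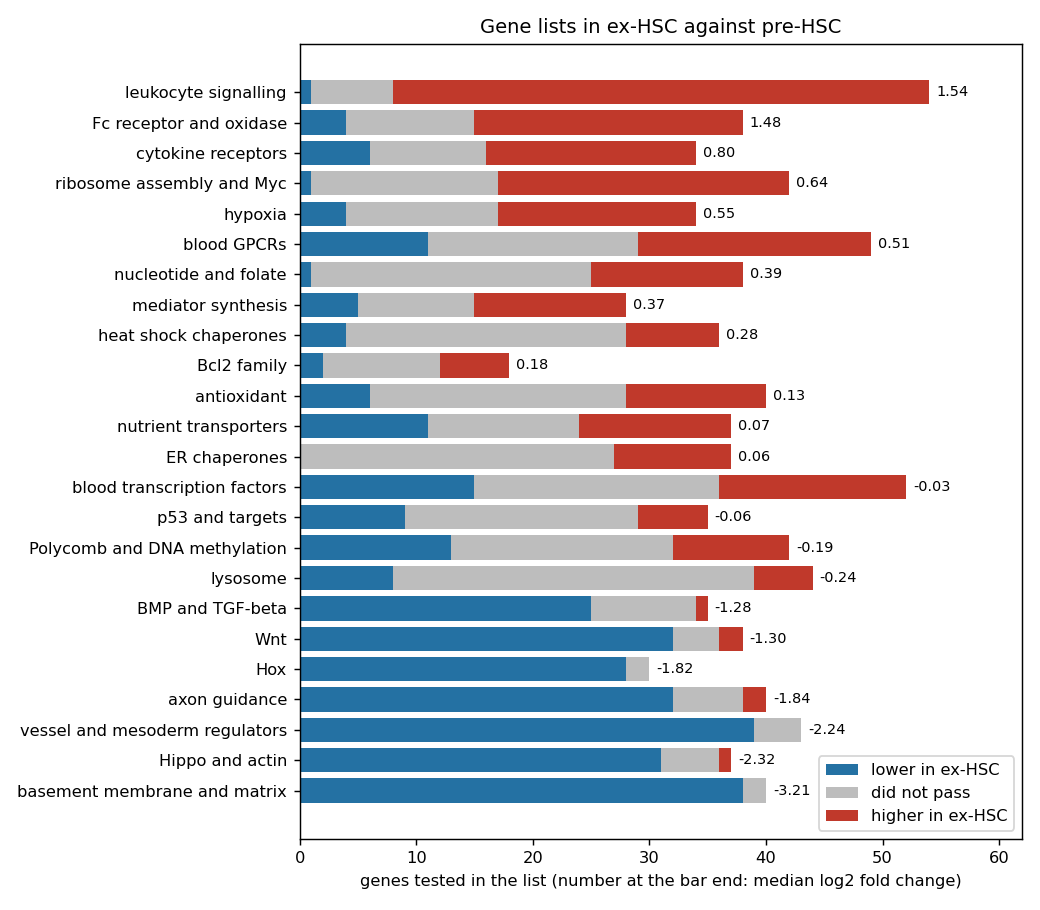
Genes tested in each of 24 lists (bar length), divided into those lower in ex-HSC (blue), those that did not pass (grey) and those higher in ex-HSC (red), with the median log2 fold change at the bar's end. Medians run from -3.21 for basement membrane and matrix to 1.54 for leukocyte signalling, and over all genes tested the median was -0.17.

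Genes induced by low oxygen rose in part, and Epas1, which encodes a HIF alpha subunit that drives such genes, fell. Of 34 tested, 17 rose, 4 fell and 13 did not pass, for a median log2 fold change of 0.55, and 2 fell without pre-HSC replicate 2 or 3 or ex-HSC replicate 3. Of the 4 falls 1, that of Epas1, was of a gene that passed the filter through pre-HSC alone. Of the 17 rises, 1 was through ex-HSC alone. Ero1l, an oxidase of protein folding, had 16.5, 18.8 and 15.7 FPKM in pre-HSC and 198, 86.2 and 116 in ex-HSC (2.82 ± 0.28 on the log2 scale, limma adjusted p = 1.01e-05). Egln3, a prolyl hydroxylase, had 10.9, 13.5 and 8.93 FPKM in pre-HSC and 43.1, 23 and 55.6 in ex-HSC (1.71 ± 0.30), and Vegfa had 12.1, 11.3 and 11.3 FPKM in pre-HSC and 47, 22.1 and 37.1 in ex-HSC (1.47 ± 0.26), so that the growth factor rose while its receptor gene Kdr fell from 223, 238 and 183 to 1.61, 0.962 and 1.65 FPKM. Hif1a fell by a small amount at 37.6, 37.1 and 31.3 FPKM in pre-HSC and 26, 23.9 and 23.1 in ex-HSC (-0.52 ± 0.19, limma adjusted p = 0.0425), and this call was lost after median-of-ratios scaling and without any library except ex-HSC replicate 2. The glucose transporter gene Slc2a1, a hypoxia target elsewhere, fell (-1.15), and Ddit4 and Bnip3l had log2 fold changes of -0.32 ± 0.23 and -0.42 ± 0.20. Of the 17 that rose, 7 encode glycolytic enzymes, Ldha, Pgk1, Eno1, Aldoa, Pgam1, Tpi1 and Hk2, of which Tpi1 lost its call without pre-HSC replicate 1 or ex-HSC replicate 1.

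Genes for ribosome assembly rose more often than they fell, by small amounts, and the number depended on scaling. Of 42 tested, 25 rose and 1 fell (median log2 fold change 0.64), and 38 rose without ex-HSC replicate 2, 37 with median-of-ratios scaling and 16 without pre-HSC replicate 1. Npm3, a nucleolar chaperone, had 62.9, 64.8 and 67.8 FPKM in pre-HSC and 179, 152 and 204 in ex-HSC (1.43 ± 0.18 on the log2 scale, limma adjusted p = 8.25e-05), and Dkc1, the pseudouridine synthase of ribosomal RNA and telomerase RNA, had 33, 44.8 and 31.3 FPKM in pre-HSC and 72.9, 83.5 and 93 in ex-HSC (1.18 ± 0.21). Mxd1, which opposes Myc, had 7.3, 5.64 and 10.5 FPKM in pre-HSC and 41.7, 20.3 and 27.3 in ex-HSC (1.78 ± 0.29). Myc itself had 26, 34.2 and 28.6 FPKM in pre-HSC and 41.4, 16.8 and 38.3 in ex-HSC, with overlapping groups (0.02 ± 0.31, limma adjusted p = 0.958), and its relative Mycn was the member that fell (-1.01), a call lost without ex-HSC replicate 2. The overlap for Myc came from ex-HSC replicate 2, as replicates 1 and 3 lay above every pre-HSC value. Ribosomal protein genes supplied 8 of the 10 largest gains in mean FPKM, among them Rpl13a from 3436, 3494 and 4256 to 8550, 6964 and 9275 (1.14 ± 0.16). Their log2 fold changes were between 0.64 for Rpl32 and 1.14, and 7 of the 8 lost their calls in some settings. Rps3a3, a copy of a ribosomal protein gene, was among the 10 steepest falls at 176, 189.8 and 215 FPKM in pre-HSC and 0.927, 0.727 and 2.61 in ex-HSC, a value uncertain because reads of the copies may have been shared.

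Folate and purine enzymes were another list whose count depended on 1 library. Of 38 tested, 13 rose and 1 fell. Without ex-HSC replicate 2, 25 rose, and the single fall was lost without any of the pre-HSC libraries or ex-HSC replicate 1. Mthfd2, a mitochondrial folate enzyme, had 11.7, 12.5 and 9.72 FPKM in pre-HSC and 104, 82.2 and 72.9 in ex-HSC (2.82 ± 0.21 on the log2 scale, limma adjusted p = 9.96e-07), and its partner Shmt2 had 41.4, 46.6 and 48.5 FPKM in pre-HSC and 128, 93.4 and 125 in ex-HSC (1.32 ± 0.20). Their groups lay well apart. The thymidylate synthase gene Tyms fell (-0.65), and Rrm1 and Rrm2, which make deoxynucleotides, had log2 fold changes of -0.05 ± 0.21 and -0.08 ± 0.19. Nutrient transporters changed in both directions, with 13 rises and 11 falls among 37. The share that fell is near the 29.6% of all genes, so the count of falls is no result about them. Among the rises 2 were of genes that passed the filter through ex-HSC alone, and 1 of the falls was through pre-HSC alone. Tfrc, the transferrin receptor for iron uptake, had 14.1, 11.8 and 9.23 FPKM in pre-HSC and 101, 71.8 and 99.4 in ex-HSC (2.85 ± 0.22, limma adjusted p = 1.67e-06), and Slc40a1, the iron exporter, had 18.5, 13.4 and 23.1 FPKM in pre-HSC and 1.91, 1.67 and 1.85 in ex-HSC (-2.75 ± 0.23). The glutamine transporter Slc1a5 rose (1.76), and Slc38a4, an imprinted amino acid transporter, had 31.2, 31 and 25.4 FPKM in pre-HSC and 0.542, 0.345 and 0.437 in ex-HSC (-4.39 ± 0.20). Cd36, a fatty acid carrier of capillaries, fell from 17.8, 17.1 and 19.9 to 1.72, 1.33 and 2.19 FPKM.

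Chaperone and antioxidant genes held some rises among many genes that did not pass. Their counts stand against 16.2% that rose and 29.6% that fell over all genes tested. For chaperones of the endoplasmic reticulum, 10 of 37 rose and none fell (median log2 fold change 0.06), with 2 falls without ex-HSC replicate 2, 6 rises and 3 falls without ex-HSC replicate 1, and 6 rises without pre-HSC replicate 2. Of the 10 rises, 1 was of a gene that passed the filter through ex-HSC alone. Herpud1 and Ddit3, induced by the unfolded protein response, had 21.4, 18 and 28.7 FPKM in pre-HSC and 124, 89.2 and 90.0 in ex-HSC for Herpud1, and 11.5, 7.6 and 11.4 FPKM in pre-HSC and 52.3, 37.1 and 49.4 in ex-HSC for Ddit3 (log2 fold changes 2.12 ± 0.23 and 2.09 ± 0.23). The abundant chaperone Hspa5 had 366, 377 and 324 FPKM in pre-HSC and 407, 264 and 355 in ex-HSC (-0.07 ± 0.20, limma adjusted p = 0.782). Heat shock genes gave 8 rises and 4 falls of 36, but 22 rises without ex-HSC replicate 2, 24 with median-of-ratios scaling, 5 without pre-HSC replicate 1, and 7 falls without ex-HSC replicate 1. Among the 4 falls 2 were of genes that passed the filter through pre-HSC alone. Hsp90aa1 had 143, 161 and 104 FPKM in pre-HSC and 386, 318 and 328 in ex-HSC (1.35 ± 0.20), and the muscle and lens chaperone Cryab had 7.75, 2.96 and 6.03 FPKM in pre-HSC and 0, 0.184 and 0.0181 in ex-HSC (-2.55 ± 0.28). Antioxidant genes gave 12 rises and 6 falls of 40, and 19 rises without ex-HSC replicate 2. Of these 6 falls 1, that of Gpx7, was of a gene that passed the filter through pre-HSC alone. Of the 12 rises, 1 was through ex-HSC alone. Nqo1, the quinone reductase and a standard target of the factor Nrf2, had 2.08, 1.5 and 2.2 FPKM in pre-HSC and 23.4, 11.3 and 16.9 in ex-HSC (2.59 ± 0.26, limma adjusted p = 1.24e-05), and Srxn1 rose as well (1.74). The Nrf2 targets Gclm and Txnrd1 had log2 fold changes of 0.17 ± 0.25 and 0.06 ± 0.21. Gpx7, a peroxidase of the endoplasmic reticulum, had 22.9, 21.3 and 22 FPKM in pre-HSC and 0.524, 0.241 and 0.594 in ex-HSC (-4.0 ± 0.20).

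Regulators of cell death moved in both directions. Of 18 Bcl2 family genes tested, 6 rose, 2 fell and 10 did not pass. Among the falls 1 was of a gene that passed the filter through pre-HSC alone. Over all genes tested, 16.2% rose and 29.6% fell. Pmaip1, which encodes the death-promoting Noxa, had 5.47, 2.17 and 5.84 FPKM in pre-HSC and 26.6, 20.3 and 20.3 in ex-HSC (2.16 ± 0.29 on the log2 scale, limma adjusted p = 0.000124), and Bbc3 and Bcl2l11, encoding Puma and Bim, rose (1.14 and 0.81). Bik and Bok, also death-promoting, had 9.73, 11.1 and 12.5 FPKM in pre-HSC and 0.525, 0.579 and 0.314 in ex-HSC for Bik, and 28.2, 29.1 and 25.9 FPKM in pre-HSC and 3.3, 2.82 and 4.06 in ex-HSC for Bok (-3.04 ± 0.20 and -2.71 ± 0.20). The protective Mcl1 had 87.7, 77.6 and 115 FPKM in pre-HSC and 116, 76.5 and 131 in ex-HSC (0.19 ± 0.24), and Bcl2 had a log2 fold change of 0.10 ± 0.24. Of 35 genes of p53 and its targets 6 rose and 9 fell, shares near the 16.2% and 29.6% of all genes, so the count is no result about them. Without ex-HSC replicate 2, 10 rose and 7 fell. Cdkn1a, the cell cycle inhibitor p21, had 16.9, 12.8 and 37 FPKM in pre-HSC and 141, 97.3 and 131 in ex-HSC (2.53 ± 0.33), while Plk2 and Phlda3 had 157, 165 and 133 FPKM in pre-HSC and 25.4, 6.96 and 27.4 in ex-HSC for Plk2, and 16.2, 15.8 and 16.6 FPKM in pre-HSC and 3.97, 1.28 and 2.52 in ex-HSC for Phlda3 (-3.06 ± 0.41 and -2.33 ± 0.27). Mdm2, the feedback inhibitor of p53, had 33, 29.4 and 27.9 FPKM in pre-HSC and 33, 20.3 and 29.4 in ex-HSC (-0.15 ± 0.22), and the groups overlapped. The gene of p53, Trp53, had 139.5, 152 and 144 FPKM in pre-HSC and 0, 99.8 and 151 in ex-HSC, with a 0 in 1 library that may be a failed estimate.

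Among Polycomb and DNA methylation genes, 10 of 42 tested rose and 13 fell. The share that fell is near the 29.6% of all genes, so the count of falls is no result about them. The rises numbered 3 without pre-HSC replicate 1, pre-HSC replicate 2 or ex-HSC replicate 3, 4 without ex-HSC replicate 1 and 6 without pre-HSC replicate 3, and the falls 5 and 8 without pre-HSC replicates 1 and 2. Among the rises 1, that of Cbx7, was of a gene that passed the filter through ex-HSC alone. Of the falls, 1 was through pre-HSC alone. Cbx7, a chromodomain subunit of Polycomb complex 1 linked to stem cell self-renewal, had 0.763, 0.568 and 0.981 FPKM in pre-HSC and 6.19, 3.46 and 5.79 in ex-HSC (1.77 ± 0.24 on the log2 scale, limma adjusted p = 0.000103), and Cbx2 had 18.5, 16.2 and 15.1 FPKM in pre-HSC and 6.68, 3.9 and 4.35 in ex-HSC (-1.58 ± 0.23). Bmi1 rose (0.63), a call that was lost without any library except ex-HSC replicate 2, and its relatives Pcgf2 and Pcgf3 fell (-1.85 ± 0.22 and -1.51 ± 0.22). Ezh2, the methyltransferase of complex 2, had 48.1, 50.8 and 39.7 FPKM in pre-HSC and 45.9, 32.8 and 49.2 in ex-HSC (-0.13 ± 0.21), and Ezh1, its relative, fell (-0.85), though not without pre-HSC replicate 1. Dnmt1 and Uhrf1, which copy methylation at replication, had 68.9, 70.2 and 58.6 FPKM in pre-HSC and 71, 41.9 and 63.7 in ex-HSC for Dnmt1, and 89.5, 85.5 and 87.6 FPKM in pre-HSC and 102, 66.7 and 99 in ex-HSC for Uhrf1 (-0.19 ± 0.23 and 0.0 ± 0.21).

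The steepest falls and the largest losses in mean FPKM included imprinted genes, endothelial genes and other genes abundant in the embryo. Mest, an imprinted gene, fell most steeply of all genes the naming rule considered, with 1549, 1687 and 1442 FPKM in pre-HSC and 7.96, 7.51 and 8.61 in ex-HSC (-7.43 ± 0.17, limma adjusted p = 2.18e-09). Cldn5, Plvap, Emcn, Cdh5 and Kdr, all of endothelium, and S100a16, a calcium-binding protein, were also among the 10 steepest (log2 fold changes -6.80, -6.75, -6.57, -6.52, -6.49 and -6.41). Hbb-y, an embryonic globin, fell from 501, 663 and 601 to 9.02, 12.9 and 11.6 FPKM. Gnas, the stimulatory G protein, had 1269, 1475 and 1396 FPKM in pre-HSC and 358, 287 and 346 in ex-HSC (-2.06 ± 0.17 on the log2 scale, limma adjusted p = 2.04e-06), and Vim, vimentin, had 1212, 1403 and 1342 FPKM in pre-HSC and 572, 482 and 606 in ex-HSC (-1.26 ± 0.16). The imprinted transcripts H19 and Igf2, which lie together in the genome, had 3606, 3861 and 4110 FPKM in pre-HSC and 974, 411 and 655 in ex-HSC for H19, and 1555, 1625 and 1459 FPKM in pre-HSC and 206, 68.7 and 159 in ex-HSC for Igf2 (-2.59 ± 0.26 and -3.55 ± 0.33), and replicate 2 was the lowest ex-HSC library for both. Tmsb4x and Tmsb10, thymosins that bind actin, fell by small amounts (-0.65 ± 0.18 and -0.59 ± 0.17), and both calls were lost in some settings. Ifitm1, a membrane protein induced by interferon in other settings and a member of a family of close copies, went the other way, from 54.3, 75.2 and 74.1 to 1779, 1220 and 1561 FPKM (4.46 ± 0.21, limma adjusted p = 3.63e-08).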

How the data were processed

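Poly(A) RNA of 8 mouse libraries was sequenced in pairs, and 6 were compared here. The deposited table gives FPKM per gene and library. Per the submitters' processing notes, Cufflinks, featureCounts, DESeq and edgeR and the genome build mm9 were used, with no versions, and the step that made the FPKM is not given in the sources used here. No counts are given, so read depth is unknown and count models were not used. FPKM is relative to each library's total, so a few abundant genes shift all others; the 100 most abundant genes held 30.4% to 32.9% of the FPKM in pre-HSC and 38.9% to 40.9% in ex-HSC. Of 33531 rows, 27 with a date in place of a symbol were left out.

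Genes that reached 1 FPKM in 2 or more of the 6 libraries entered a two-sided test on log2(FPKM + 1) with limma 3.58.1 in R 4.3.3 (lmFit, eBayes with an intensity trend), with Benjamini-Hochberg adjustment over all 13324 genes and a threshold of 0.05. Fold changes are ex-HSC minus pre-HSC with their SE and understate those of low genes. The fit was tested on simulated data. A gene is said to overlap where the ranges of its 3 values in each group do.

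The comparison, lists and markers were chosen with earlier results of these data known. Named were the 10 steepest calls and the 10 largest differences in mean FPKM in each direction and, per list, up to 4 called and 2 uncalled genes. Not all genes that this rule gives are named in the text, and other genes were named after their values were seen. Gene order and promoters are from RefSeq on GRCm38.p6 and no coordinate was converted. Alternatives covered pseudocount, filter, scaling, weights, trend, replicate block, all 8 libraries, isolated zeros, a minimum change and each library left out.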

Additional observations from a re-analysis of the deposited data

How the results depend on the processing

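The naming rule gave 183 genes, of which 133 were called, and 121 of these kept their call in all 19 alternative settings. The rule took called genes by the size of their change, so this share does not speak for smaller changes. The 50 that were not called were less stable, since 34 of them passed in the same direction in some setting. The number that rose was 3940 after scaling by median of ratios, 4327 after quantile normalization, 3784 with array weights and 3663 without ex-HSC replicate 2 after median-of-ratios scaling. With a minimum log2 fold change of 1, 1142 rose and 2579 fell. As each library was left out in turn, between 1584 and 3356 genes rose, the highest number without ex-HSC replicate 2, and between 3163 and 3964 fell; the cause was not tested. Under quantile normalization 3 genes that were not called reversed, Calr to a log2 fold change of -0.25, Hsp90ab1 to -0.33 and Hspa8 to -0.37. The 12 genes of the naming rule that lost their call in some setting were Apoe, Bcl2a1b, Tmsb4x, Tmsb10, Xist and 7 ribosomal protein genes. Other genes named in the text lost calls too, among them Dlk1, Hif1a, Tal1, Bmi1 and Tyms. Same-numbered libraries did not deviate together (correlations of -0.11, -0.04 and 0.02). With 3 libraries a group these values cannot decide whether equal numbers mark paired samples, and pairing remains unknown. With a replicate block 2364 genes rose and 4179 fell. With 3 libraries a group and no counts, small changes of low genes cannot be resolved, and a value of 0 in a single library may be a failed estimate. There were 45 such values among genes at 10 FPKM or more in the other libraries of the group, and their cause was not tested.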

Other observations

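A few single values stood apart in ways the groups do not follow. Cbx8, a Polycomb subunit, was listed at 193.5 FPKM in ex-HSC replicate 1 and far lower in the other libraries. Trp53 was listed at 0 in ex-HSC replicate 1 and Sema4d at 0 in ex-HSC replicate 2, each with values above 6 FPKM in the other 5 libraries.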
